A study of Mus musculus with 8 samples.

Results

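The genes described here act in the response to DNA damage and in its repair, and they were measured in mouse embryonic fibroblasts (MEFs), connective tissue cells cultured from embryos. They are a list of 39 genes of checkpoint signalling, the Fanconi anaemia pathway, homologous recombination, end joining, mismatch repair, base excision and single-strand break repair and nucleotide excision repair. A gene was taken from the transcript clusters, the probe groups of the array, whose only gene symbol is that gene. Of the 39, 38 were measured, out of 17501 genes in all, and Xrcc2 was not analysed here. Of these 38, 36 had 1 cluster, Nbn had 2 and Bard1 had 3, and a gene with several was given their mean. No filter on low values was applied, so all 38 entered every test.

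RNA was hybridised to 8 Affymetrix arrays, 4 of cells without Smurf2 (Smurf2-/-) and 4 of wild-type cells. Smurf2 encodes a HECT-type ubiquitin ligase. Either genotype was represented on a background mixed from 129SVJ and NIH Black Swiss, here mixed BL, and on C57B6, each at a late and an early passage, with 1 array per combination. Late was passage 33 in mixed BL and 28 in C57B6, and early was passage 6 in mixed BL and 7 in C57B6. The mixed BL culture was a mix of 3 embryos for Smurf2-/- and of 2 for wild-type, and each C57B6 culture came from 1 embryo. All cells grew in the same serum-containing medium, with no DNA-damaging agent named in the labels. The labels give conflicting embryonic days and do not say whether late and early arrays were passages of 1 culture. P-values therefore measure the spread between these arrays only, which may be technical in part.

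The values are log2, centred on each cluster's median over the 8 arrays, so 0 is the middle array of that gene, a step of 1 is a 2-fold difference, and levels of different genes cannot be compared. Differences are Smurf2-/- minus wild-type, late minus early, or mixed BL minus C57B6, each with the standard error (SE) of a limma fit over all 17501 genes. P-values were adjusted over all genes (Benjamini-Hochberg), and a gene passed at an adjusted p under 0.05.

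As background, broken DNA ends are held by the complex of Mre11a, Rad50 and Nbn and signalled by the kinase Atm, while stretches of single-stranded DNA at stalled forks are signalled by the kinase Atr. Chek1 and Chek2 pass these signals on and halt the cell cycle. Breaks are joined directly by the Ku proteins and a ligase, or are copied from the sister chromatid by homologous recombination, in which Brca1 and Brca2 act. The Fanconi anaemia proteins unhook crosslinks between DNA strands. Many genes of checkpoint signalling and recombination are transcribed most strongly while cells replicate their DNA, and E2F factors are known regulators of several of them.

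The labels were checked on Smurf2 itself, which stood at -1.19 and -1.21 in late Smurf2-/- cells of mixed BL and C57B6 and -0.70 and -0.43 in early ones, against 0.43 and 0.64 in late and 0.96 and 0.71 in early wild-type cells. The 4 Smurf2-/- arrays lay below the 4 wild-type arrays, and the difference was -1.57 ± 0.12 (limma adjusted p = 0.0483). The genotypes were also split by embryo sex: Xist was at or below -1.53 on the Smurf2-/- arrays and at or above 1.53 on the wild-type arrays, and Uty, Kdm5d and Eif2s3y of the Y chromosome lay above 0 on the Smurf2-/- arrays and below 0 on the wild-type arrays. Genotype and sex cannot be told apart in these 8 arrays. Centred values hold no level, so whether fibroblast markers are abundant was not analysed here. The median of 8 fibroblast markers ran from -0.64 on the late Smurf2-/- C57B6 array to 0.07 on the late wild-type C57B6 array. Those of 5 lists of other cell types, 30 genes in all, lay between -0.25 and 0.42. Some single markers moved further than these medians. Thy1 ran from -2.21 in late wild-type to 2.76 in early Smurf2-/- cells of mixed BL. Pdgfra was at 1.47 and -1.58 in late Smurf2-/- cells of mixed BL and C57B6, whereas Vim stayed between -0.27 and 0.09. Of the other lists, Lyz2 reached 3.20 in early mixed BL wild-type and 2.07 in early mixed BL Smurf2-/- cells. The median of the macrophage and leukocyte list was 0.16 on the former array. Nes was at 1.48 in late and 0.79 in early C57B6 Smurf2-/- cells. Sox2 was at 1.02 in early C57B6 and Acta1 at 1.24 in early mixed BL Smurf2-/- cells. In bulk RNA, fewer cells of a type and less RNA per cell cannot be told apart.

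At late passage 34 of the 38 repair and damage response genes stood higher in Smurf2-/- than in wild-type cells, with a median difference of 0.44, against 0.02 over all genes. None of the 38 passed the adjusted threshold in that comparison, and 0% of all genes did. At an unadjusted p under 0.05 there were 21 of the 38, and all 21 were higher, against 13.4% of all genes in either direction and 6.39% higher. At early passage the same genes were divided, 19 with a positive and 19 with a negative difference, with 0 passing the adjusted threshold (0.00571% of all genes) and 1 at an unadjusted p under 0.05 (1.09% of all genes). The test of the difference between passages, the interaction of genotype with passage, was positive for 34 of the 38 with a median of 0.37. It was called for 0 of them and for 0% of all genes, and 13 had an unadjusted p under 0.05 (5.35% of all genes). With 1 array left out, the 21 ranged from 14, without late C57B6 Smurf2-/-, to 23, without late mixed BL Smurf2-/-. The 13 became 5 without the early C57B6 Smurf2-/- array and 7 without either early wild-type array. The 1 gene at early passage became 0 without either early Smurf2-/- array or the early C57B6 wild-type array, and 2 without either late Smurf2-/- array.

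**Figure D1:**
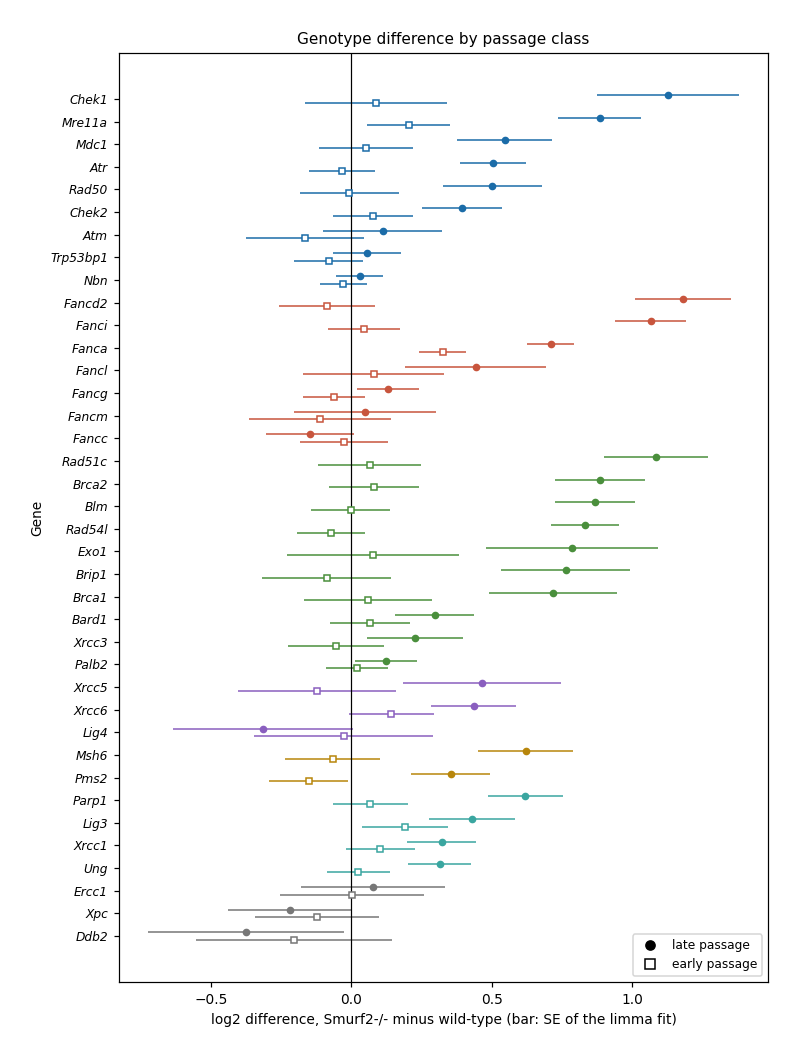
Genotype difference of each repair or damage response gene (Smurf2-/- minus wild-type, log2, horizontal axis) at late passage (filled circles) and early passage (open squares), with the SE of the limma fit as bars; colours mark the functional groups. Late differences run from -0.38 for Ddb2 to 1.18 for Fancd2, whereas early ones are spread around 0.

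A pair of high arrays recurred among these genes. For 22 of the 38 genes, both late Smurf2-/- arrays lay above the other 6 arrays, against 10.3% of all genes, and for 0 of the 38 they lay below the other 6, against 8.13% of all genes. The 22 included 8 of 10 recombination genes, 5 of 9 checkpoint genes and 3 of 7 Fanconi genes. The rest were 3 of 4 base excision, 2 of 2 mismatch repair, 1 of 3 end joining and 0 of 3 nucleotide excision genes. Each gene was put in only 1 group, although some act in more than 1, so these shares depend on the grouping chosen here. With the mixed BL array left out, the late C57B6 Smurf2-/- array alone lay above the 6 others for 29 of the 38, against 32.8% of all genes. The late mixed BL Smurf2-/- array alone did so for 23 of the 38, against 18.2% of all genes. In the 4 matched pairs of arrays, the median difference over the 38 genes was 0.24 in late mixed BL and 0.55 in late C57B6, and 0.05 in early mixed BL and -0.02 in early C57B6. A gene was higher in Smurf2-/- in all 4 pairs for 10 of the 38, against 11.0% of all genes, and lower in all 4 for 0, against 9.35%.

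**Figure D2:**
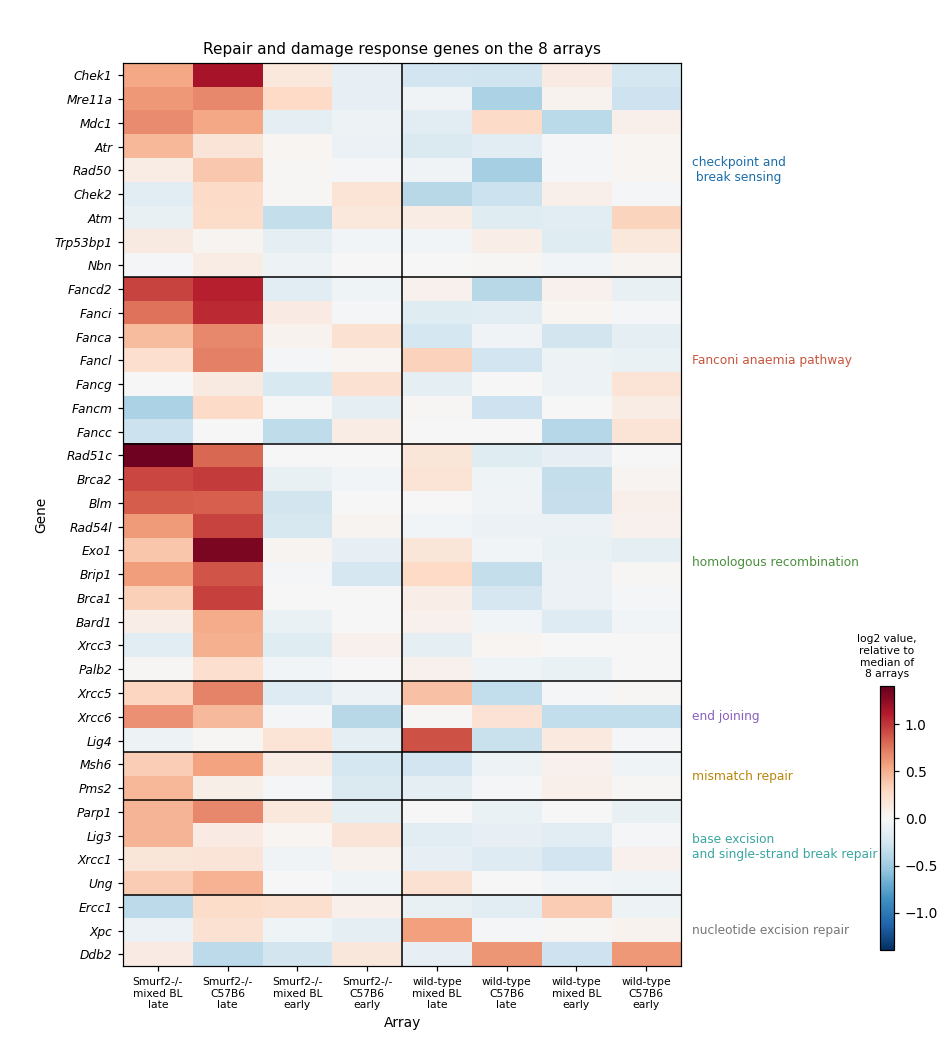
Centred log2 values of the 38 genes (rows, grouped by function) on the 8 arrays (columns, Smurf2-/- left of the vertical line and wild-type right of it); red is above and blue below the gene's median over the arrays. The 2 late Smurf2-/- columns hold most of the deep red, including Rad51c at 1.37 in mixed BL and Exo1 at 1.32 in C57B6.

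The same arrays were high for genes of cell division that are not on the repair list. The median of 11 proliferation markers was 0.57 and 1.03 in late Smurf2-/- cells of mixed BL and C57B6 and -0.08 and 0.02 in early ones, against -0.08 and -0.05 in late and -0.15 and -0.06 in early wild-type cells. The median of 16 genes of replication licensing and forks was 0.43 and 0.96 in late Smurf2-/- cells of mixed BL and C57B6 and 0.07 and -0.19 in early ones, against 0.14 and -0.26 in late and -0.05 and -0.27 in early wild-type cells. The median of the 38 repair and damage response genes was 0.34 and 0.49 in late Smurf2-/- cells of mixed BL and C57B6 and -0.02 and -0.03 in early ones, against -0.0041 and -0.09 in late and -0.07 and 0.01 in early wild-type cells. Both late Smurf2-/- arrays thus had higher medians than the other 6 in each of the 3 lists, and they lay above the other 6 for 10 of the 11 proliferation markers and 11 of the 16 replication genes. The part of proliferation in the values of the repair genes was not tested.

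**Figure D3:**
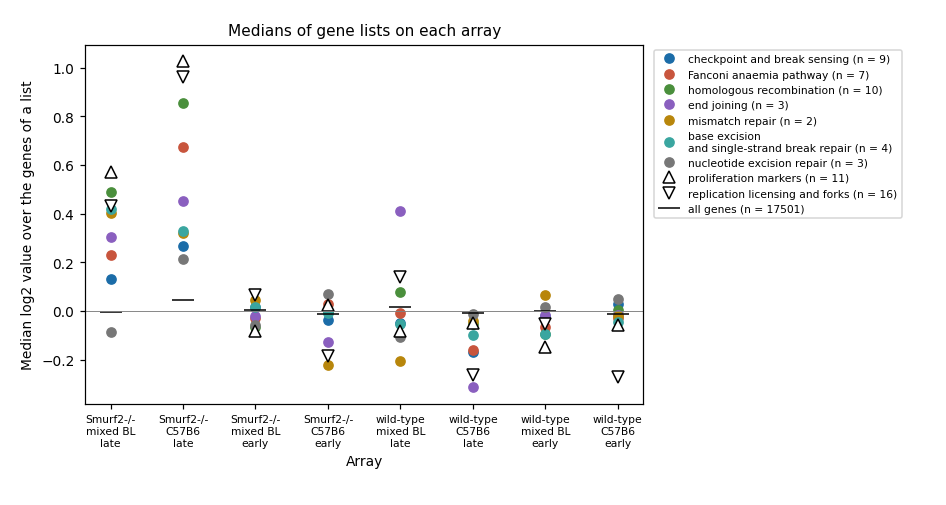
Median centred log2 value (vertical axis) of the 7 functional groups of repair genes (circles), of proliferation markers and replication genes (triangles) and of all genes (bars) on each array. Recombination genes reach 0.86 on the late C57B6 Smurf2-/- array, next to 1.03 for proliferation markers and 0.96 for replication genes, while nucleotide excision genes are at 0.21 there.

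The windows around the start sites of these genes were searched for 4 spellings of the E2F site, TTTCCCGC, TTTCGCGC, TTTGCCGC and TTTGGCGC, on both strands. The spellings do not overlap one another on 1 strand. Windows of 300 bases, 250 before and 50 after the annotated start, were at hand for 32 of the 38 genes. A match was found for 8 of the 32, or 25%, and for 3.83% of the 13736 measured genes with a window. Among the genes with both late Smurf2-/- arrays above the other 6 it was 6 of 19, and among the other genes of the list 2 of 13. Of the 16 replication genes, 13 had a window and 7 of these held a match. Of the proliferation markers, 9 had a window and 1 of these held a match. Further genes of the repair pathways, taken up below, were searched too. A match was found for 3 of 10 checkpoint, 0 of 9 Fanconi, 1 of 12 recombination and 0 of 4 end joining genes. It was found for 1 of 3 mismatch repair, 2 of 12 base excision, 0 of 11 nucleotide excision and 0 of 8 translesion and reversal genes. The 8 genes of the list with a match were Rad51c, Brca2, Msh6, Mdc1, Xrcc6, Chek2, Bard1 and Fancg. Genes with large late genotype differences also lacked a match, such as Chek1, Fanci and Mre11a at 1.13, 1.07 and 0.88. Blm, Rad54l, Brip1, Brca1 and Fanca, all with larger late differences than Msh6, had no match either. For Fancd2, with the largest late difference of the list, no window was at hand. The windows below are those of the 3 with the largest late genotype difference among the 8 with a match. They are from RefSeq on GRCm38.p6, read 5′ to 3′ on the gene's strand with the match in capitals. That of Rad51c lies at chr11:87404905-87405204 on the minus strand, with a match that begins 5 bases before the start and runs across it, and a further listed window of that gene also held a match. That of Brca2 lies at chr5:150522371-150522670 on the plus strand, with a match that begins 168 bases before the start. That of Msh6 lies at chr17:87974800-87975099 on the plus strand, with a match that begins 15 bases after the start.
Rad51c: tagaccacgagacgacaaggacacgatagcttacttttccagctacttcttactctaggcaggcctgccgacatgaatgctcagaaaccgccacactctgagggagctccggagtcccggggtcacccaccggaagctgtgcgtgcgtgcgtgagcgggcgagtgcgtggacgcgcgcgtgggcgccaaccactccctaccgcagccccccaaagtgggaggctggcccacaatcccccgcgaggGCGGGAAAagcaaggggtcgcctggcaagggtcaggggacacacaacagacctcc
Brca2: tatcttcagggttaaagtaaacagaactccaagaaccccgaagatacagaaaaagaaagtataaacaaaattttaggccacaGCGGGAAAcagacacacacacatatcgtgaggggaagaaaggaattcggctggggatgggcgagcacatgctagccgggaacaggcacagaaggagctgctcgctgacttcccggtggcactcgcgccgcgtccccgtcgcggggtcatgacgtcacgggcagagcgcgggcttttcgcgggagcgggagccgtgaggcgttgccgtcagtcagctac
Msh6: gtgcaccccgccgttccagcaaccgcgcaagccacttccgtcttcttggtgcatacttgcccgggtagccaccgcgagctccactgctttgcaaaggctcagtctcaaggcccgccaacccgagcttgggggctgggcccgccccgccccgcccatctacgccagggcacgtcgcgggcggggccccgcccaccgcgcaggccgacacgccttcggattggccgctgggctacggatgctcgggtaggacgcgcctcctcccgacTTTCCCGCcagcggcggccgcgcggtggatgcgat

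Among the 9 checkpoint and break sensing genes, all 9 had a positive genotype difference at late passage, with a median of 0.50, and 6 had an unadjusted p under 0.05. Chek1, the effector kinase of the Atr branch, was at 0.55 and 1.16 in late Smurf2-/- cells of mixed BL and C57B6 and 0.15 and -0.11 in early ones, against -0.27 and -0.28 in late and 0.11 and -0.25 in early wild-type cells. Only the late Smurf2-/- arrays stood clear of the rest, C57B6 further than mixed BL, and the late genotype difference was 1.13 ± 0.25 (limma adjusted p = 0.196), against 0.09 ± 0.25 at early passage. Mre11a, the nuclease of the break-binding complex, was at 0.60 and 0.67 in late Smurf2-/- cells of mixed BL and C57B6 and 0.28 and -0.12 in early ones, against -0.05 and -0.45 in late and 0.05 and -0.29 in early wild-type cells. Its late Smurf2-/- arrays were the highest, the early mixed BL Smurf2-/- array came next, and the late difference was 0.88 ± 0.15 (limma adjusted p = 0.138). Of its partners, Rad50 differed by 0.50 ± 0.18 and Nbn by 0.03 ± 0.08 at late passage. The 2 clusters of Nbn moved in opposite directions with passage in both genotypes. In late Smurf2-/- cells of mixed BL and C57B6, 1 was at -0.14 and -0.04 and the other at 0.09 and 0.25. In late wild-type cells the former was at -0.13 and -0.03 and the latter at 0.14 and 0.07. On the early arrays the former was positive and the latter negative throughout.

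Mdc1, the mediator that binds phosphorylated histone H2AX beside a break, was at 0.66 and 0.54 in late Smurf2-/- cells of mixed BL and C57B6 and -0.14 and -0.07 in early ones, against -0.16 and 0.27 in late and -0.37 and 0.07 in early wild-type cells. The late Smurf2-/- arrays were again the 2 highest, and the late C57B6 wild-type array came next, so the late difference was 0.55 ± 0.17. Atr, the kinase of stalled forks, was at 0.47 and 0.18 in late Smurf2-/- cells of mixed BL and C57B6 and 0.02 and -0.09 in early ones, against -0.20 and -0.16 in late and -0.02 and 0.03 in early wild-type cells. Here mixed BL led among the late Smurf2-/- arrays, and the late difference was 0.50 ± 0.12 (limma adjusted p = 0.201). Chek2, the effector kinase of the Atm branch, was at -0.16 and 0.27 in late Smurf2-/- cells of mixed BL and C57B6 and 0.01 and 0.20 in early ones, against -0.39 and -0.30 in late and 0.07 and -0.01 in early wild-type cells. Its late Smurf2-/- arrays lay on either side of the early ones, and its late wild-type arrays were the 2 lowest of the 8. Atm itself differed by 0.11 ± 0.21 and Trp53bp1, which shields broken ends from resection, by 0.06 ± 0.12 at late passage, both less than their SE.

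Of the 7 Fanconi anaemia genes, 6 had a positive late difference, with a median of 0.44, and 3 had an unadjusted p under 0.05. Fancd2, one of the pair of proteins that the pathway ubiquitinates, was at 0.95 and 1.09 in late Smurf2-/- cells of mixed BL and C57B6 and -0.16 and -0.06 in early ones, against 0.06 and -0.39 in late and 0.06 and -0.10 in early wild-type cells. The late Smurf2-/- arrays lay 0.88 or more above each of the other 6, and the late difference was 1.18 ± 0.17, or 2.27-fold (limma adjusted p = 0.128). Fanci, its partner in that pair, was at 0.76 and 1.04 in late Smurf2-/- cells of mixed BL and C57B6 and 0.11 and -0.03 in early ones, against -0.17 and -0.16 in late and 0.03 and -0.03 in early wild-type cells. The gap between the late Smurf2-/- arrays and the rest was again wide, with a late difference of 1.07 ± 0.13, or 2.09-fold (limma adjusted p = 0.124). At early passage the pair differed by -0.09 ± 0.17 and 0.05 ± 0.13.

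Fanca, a subunit of the core ligase complex, was at 0.45 and 0.68 in late Smurf2-/- cells of mixed BL and C57B6 and 0.05 and 0.22 in early ones, against -0.25 and -0.05 in late and -0.25 and -0.13 in early wild-type cells. All 4 Smurf2-/- arrays lay above all 4 wild-type arrays for Fanca and for Lig3, 2 of the 38, against 1.14% of all genes. The Smurf2-/- and wild-type means of Fanca were 0.35 ± 0.27 and -0.17 ± 0.10 (SD, n = 4 each). Its genotype difference over both passages was 0.52 ± 0.09 (limma adjusted p = 0.651), with 0.71 ± 0.08 at late and 0.32 ± 0.08 at early passage, where it was the 1 gene at an unadjusted p under 0.05. Fancl, the ubiquitin ligase subunit of that complex, was at 0.23 and 0.71 in late Smurf2-/- cells of mixed BL and C57B6 and -0.03 and 0.03 in early ones, against 0.32 and -0.26 in late and -0.07 and -0.09 in early wild-type cells. The late wild-type arrays of the 2 backgrounds lay on either side of the late mixed BL Smurf2-/- array in level order, so the late genotype difference of 0.44 ± 0.25 came with overlap. The remaining subunits had late differences close to their SE or below it, 0.13 ± 0.11 for Fancg, 0.05 ± 0.25 for the translocase Fancm and -0.15 ± 0.16 for Fancc.

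All 10 recombination genes had a positive late difference, with a median of 0.77, and 6 had an unadjusted p under 0.05. Rad51c, which helps to build and resolve recombination intermediates, was at 1.37 and 0.81 in late Smurf2-/- cells of mixed BL and C57B6 and 0.004 and -0.004 in early ones, against 0.17 and -0.17 in late and -0.12 and -0.01 in early wild-type cells. Mixed BL was the higher of its late Smurf2-/- arrays, the early Smurf2-/- arrays were near 0, and the late difference was 1.08 ± 0.18, or 2.12-fold (limma adjusted p = 0.141). Brca2, a breast cancer susceptibility gene in humans, was at 0.93 and 0.98 in late Smurf2-/- cells of mixed BL and C57B6 and -0.11 and -0.04 in early ones, against 0.19 and -0.05 in late and -0.34 and 0.04 in early wild-type cells. Its late Smurf2-/- arrays were nearly alike and the late difference was 0.88 ± 0.16 (limma adjusted p = 0.148). Blm, the helicase mutated in Bloom syndrome in humans, was at 0.85 and 0.84 in late Smurf2-/- cells of mixed BL and C57B6 and -0.26 and 0.001 in early ones, against -0.001 and -0.05 in late and -0.32 and 0.07 in early wild-type cells. Its late Smurf2-/- arrays were also alike, all 6 others were at or below 0.07, and the late difference was 0.87 ± 0.14 (limma adjusted p = 0.134).

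Rad54l, a DNA translocase of recombination, was at 0.60 and 0.94 in late Smurf2-/- cells of mixed BL and C57B6 and -0.22 and 0.04 in early ones, against -0.04 and -0.08 in late and -0.09 and 0.06 in early wild-type cells. The late Smurf2-/- arrays stood apart, and the genotype difference was 0.83 ± 0.12 at late passage (limma adjusted p = 0.128) and -0.07 ± 0.12 at early passage. Brca1, the ubiquitin ligase that acts in resection and in recruiting Brca2, was at 0.34 and 0.95 in late Smurf2-/- cells of mixed BL and C57B6 and 0.01 and -0.01 in early ones, against 0.09 and -0.23 in late and -0.09 and -0.03 in early wild-type cells. The late C57B6 Smurf2-/- array was well above the late mixed BL one, and the late difference was 0.72 ± 0.23 (limma adjusted p = 0.289). Bard1, its obligate partner, differed by 0.30 ± 0.14 and Palb2, the bridge between Brca1 and Brca2, by 0.12 ± 0.11. The helicase gene Brip1 differed by 0.76 ± 0.23 and the nuclease gene Exo1 by 0.79 ± 0.31 at late passage. Xrcc3, which also acts on recombination intermediates, was at -0.15 and 0.50 in late Smurf2-/- cells of mixed BL and C57B6 and -0.17 and 0.06 in early ones, against -0.13 and 0.03 in late and -0.002 and 0.002 in early wild-type cells. Only its late C57B6 Smurf2-/- array stood out, and the late mixed BL one was the second lowest of the 8.

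**Figure D4:**
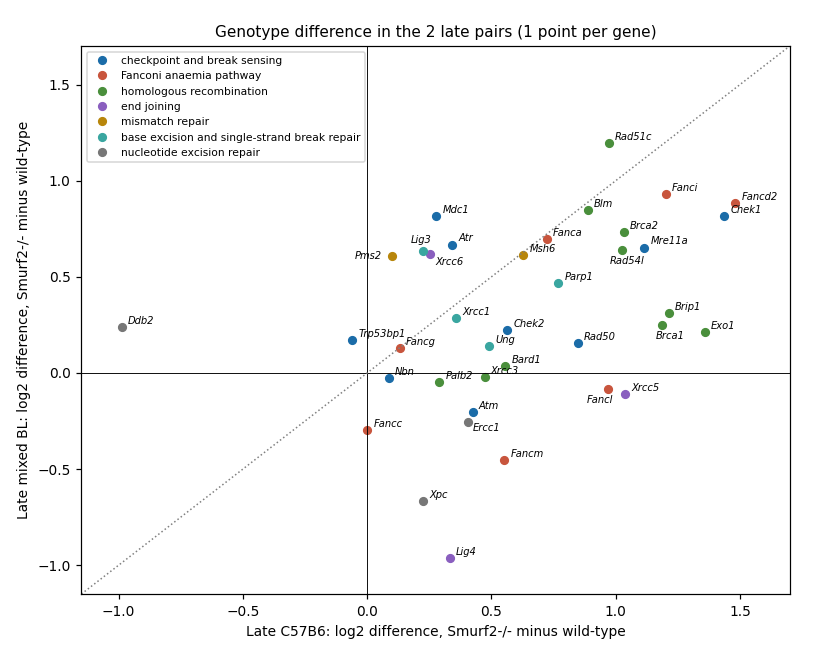
Late genotype difference (Smurf2-/- minus wild-type, log2) of each of the 38 genes in C57B6 (horizontal axis) and in mixed BL (vertical axis), 1 array against 1 in each, with the line of equal values dotted. Points in the upper right quadrant were higher in both pairs; genes such as Ddb2 in the upper left and Lig4, Xpc and Fancm at the lower right had opposite signs in the 2 backgrounds.

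The 3 end joining genes did not share a pattern. Xrcc6, the Ku70 subunit that binds broken ends, was at 0.64 and 0.45 in late Smurf2-/- cells of mixed BL and C57B6 and -0.02 and -0.39 in early ones, against 0.02 and 0.20 in late and -0.35 and -0.34 in early wild-type cells. Its late Smurf2-/- arrays were the highest, its late wild-type arrays also lay above their early counterparts, and the late genotype difference was 0.43 ± 0.15. Xrcc5, the Ku80 subunit, was at 0.30 and 0.69 in late Smurf2-/- cells of mixed BL and C57B6 and -0.18 and -0.07 in early ones, against 0.41 and -0.35 in late and -0.02 and 0.02 in early wild-type cells. The late mixed BL arrays of the 2 genotypes were close, so the late difference of 0.47 ± 0.28 rested on C57B6. Lig4, the ligase of this route, was at -0.07 and 0.02 in late Smurf2-/- cells of mixed BL and C57B6 and 0.19 and -0.13 in early ones, against 0.89 and -0.31 in late and 0.14 and -0.02 in early wild-type cells. A single array, late mixed BL wild-type, stood above the rest, and the late genotype difference was -0.32 ± 0.32.

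Mismatch repair was represented by 2 genes, and the late Smurf2-/- arrays were the highest for both. Msh6, which recognises mismatched bases, was at 0.34 and 0.56 in late Smurf2-/- cells of mixed BL and C57B6 and 0.11 and -0.24 in early ones, against -0.27 and -0.07 in late and 0.06 and -0.06 in early wild-type cells. Its late genotype difference was 0.62 ± 0.17 (limma adjusted p = 0.244), against -0.07 ± 0.17 at early passage. Pms2, an endonuclease subunit that acts after recognition, was at 0.47 and 0.08 in late Smurf2-/- cells of mixed BL and C57B6 and -0.02 and -0.20 in early ones, against -0.14 and -0.01 in late and 0.07 and 0.01 in early wild-type cells. Its late C57B6 Smurf2-/- array exceeded the next array by only 0.01, and the late difference was 0.35 ± 0.14.

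All 4 base excision and single-strand break genes had a positive late difference and an unadjusted p under 0.05, with a median of 0.38. Parp1, which senses nicks and modifies proteins with poly(ADP-ribose), was at 0.48 and 0.68 in late Smurf2-/- cells of mixed BL and C57B6 and 0.15 and -0.13 in early ones, against 0.01 and -0.09 in late and -0.01 and -0.10 in early wild-type cells. The late Smurf2-/- arrays were the 2 highest, and the late difference was 0.62 ± 0.13 (limma adjusted p = 0.186). The ligase gene Lig3 was at 0.48 and 0.12 in late Smurf2-/- cells of mixed BL and C57B6 and 0.03 and 0.18 in early ones, against -0.16 and -0.11 in late and -0.15 and -0.03 in early wild-type cells. The 4 Smurf2-/- arrays were above 0 and the 4 wild-type arrays below it, late C57B6 Smurf2-/- being lower than early, and the difference over both passages was 0.31 ± 0.11 (limma adjusted p = 0.651). Xrcc1, the scaffold for Lig3, was at 0.17 and 0.18 in late Smurf2-/- cells of mixed BL and C57B6 and -0.05 and 0.05 in early ones, against -0.12 and -0.18 in late and -0.27 and 0.06 in early wild-type cells. Its late Smurf2-/- arrays were alike and were the 2 highest, 0.11 above the next. Ung, which cuts uracil out of DNA, was at 0.36 and 0.48 in late Smurf2-/- cells of mixed BL and C57B6 and 0.01 and -0.06 in early ones, against 0.22 and -0.01 in late and -0.04 and -0.06 in early wild-type cells. The late mixed BL wild-type array came next, and the late differences of Xrcc1 and Ung were 0.32 ± 0.12 and 0.32 ± 0.11.

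In nucleotide excision repair, which removes bulky and ultraviolet lesions, 2 of the 3 genes had a negative late difference and none had both late Smurf2-/- arrays above the rest. Ddb2, the damage sensor of ultraviolet lesions, was at 0.12 and -0.37 in late Smurf2-/- cells of mixed BL and C57B6 and -0.26 and 0.16 in early ones, against -0.12 and 0.62 in late and -0.29 and 0.60 in early wild-type cells. The wild-type C57B6 arrays were the 2 highest at either passage, and the late C57B6 Smurf2-/- array was the lowest. Xpc, the sensor of helix distortion, was at -0.09 and 0.21 in late Smurf2-/- cells of mixed BL and C57B6 and -0.06 and -0.13 in early ones, against 0.58 and -0.01 in late and 0.01 and 0.05 in early wild-type cells. One array, late mixed BL wild-type, stood apart, as it did for Lig4. Ercc1, the partner of the incision nuclease Ercc4, was at -0.36 and 0.26 in late Smurf2-/- cells of mixed BL and C57B6 and 0.22 and 0.07 in early ones, against -0.11 and -0.15 in late and 0.36 and -0.07 in early wild-type cells. Its late mixed BL Smurf2-/- array was the lowest and its early mixed BL wild-type array the highest of the 8.

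Over both passages together, the genotype difference was positive for 31 of the 38 genes with a median of 0.24, against 0.02 over all genes. It was called for 0 of the 38 and for 0.0286% of all genes, which were Smurf2 itself and the 4 sex-linked genes named above. Of the 38, 6 had an unadjusted p under 0.05, against 7.55% of all genes. The 6 were Fanca, Mre11a, Lig3, Xrcc6, Brca2 and Fanci, all with higher values in Smurf2-/- cells. The smallest p-values were those of Fanca and of Mre11a, whose difference was 0.54 ± 0.17 (limma adjusted p = 0.651). These values average a late difference and an early one, whose median over the 38 genes was -0.00048. The 6 became 1 without the late mixed BL wild-type array, 2 without the late C57B6 wild-type array, 3 without either late Smurf2-/- array and 10 without the early C57B6 wild-type array.

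Late against early passage was compared within each genotype. In Smurf2-/- cells, 32 of the 38 genes stood higher at late passage, with a median of 0.41 against 0.04 over all genes. None was called, as for 0% of all genes, and 19 had an unadjusted p under 0.05, all higher, against 14.8% of all genes in either direction and 6.06% higher. The 19 became 8 without the early C57B6 Smurf2-/- array. The largest late minus early differences were 1.13 ± 0.17 for Fancd2, 1.09 ± 0.18 for Rad51c and 1.02 ± 0.16 for Brca2 (limma adjusted p = 0.113, 0.13 and 0.118). In wild-type cells the 38 genes were divided, 20 higher and 18 lower at late passage, with a median of 0.0096. None was called (0% of all genes), and 2 had an unadjusted p under 0.05 (7.25% of all genes), Xrcc6 at 0.46 ± 0.15 and Chek2 at -0.37 ± 0.14. The 2 became 0 without the early mixed BL wild-type array and 1 without the early C57B6 wild-type array or any 1 of the Smurf2-/- arrays. The 2 differences are taken between separate arrays, but come from 1 fit over all 8 arrays with a shared estimate of the spread. Their p-values are therefore not independent. The difference between the 2 comparisons is the interaction given above.

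The pairs of late and early arrays show the same comparison background by background. The median late minus early difference over the 38 genes was 0.33 in mixed BL and 0.48 in C57B6 Smurf2-/- cells, against 0.14 in mixed BL and -0.11 in C57B6 wild-type cells. Over both genotypes, late passage was called for 0 of the 38 (0.0171% of all genes), and 6 had an unadjusted p under 0.05 (17.3% of all genes). The 6 became 1 without either early Smurf2-/- array, 3 without the late mixed BL Smurf2-/- array and 15 without the late C57B6 wild-type array. Xrcc6 had the smallest p, with a difference of 0.60 ± 0.11 (limma adjusted p = 0.123). It was followed by Ung at 0.30 ± 0.09 and Brca2 at 0.62 ± 0.20.

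By background, mixed BL minus C57B6 was positive for 17 and negative for 21 of the 38, with a median of -0.04, called for 0 (0.0800% of all genes), and 2 had an unadjusted p under 0.05 (13.5% of all genes). The sign of this median rested on single arrays: it was 0.10 when late C57B6 Smurf2-/- was left out and -0.16 when late C57B6 wild-type was. The 2 became 6 without the late mixed BL Smurf2-/- array, 4 without late C57B6 wild-type, 1 without late mixed BL wild-type, and 0 without either early Smurf2-/- array or the early C57B6 wild-type array. Fancc, a core complex subunit, was at -0.30 and 0.01 in late Smurf2-/- cells of mixed BL and C57B6 and -0.36 and 0.10 in early ones, against -0.01 and 0.01 in late and -0.40 and 0.19 in early wild-type cells. Mixed BL was lower than C57B6 in each of the 4 matched pairs, with a difference of -0.34 ± 0.10 (limma adjusted p = 0.254). Fancg, another core subunit, was at 0.0024 and 0.13 in late Smurf2-/- cells of mixed BL and C57B6 and -0.21 and 0.21 in early ones, against -0.13 and -0.0024 in late and -0.07 and 0.19 in early wild-type cells. Mixed BL was lower in all 4 pairs there too, with a difference of -0.23 ± 0.08. The interaction of genotype with background was called for 0 of the 38 and for 0% of all genes, and 1 of the 38, Ddb2, had an unadjusted p under 0.05 (3.18% of all genes). That 1 became 0 without the late mixed BL Smurf2-/- array or either late wild-type array, 3 without the early mixed BL Smurf2-/- or early C57B6 wild-type array, and 8 without the early C57B6 Smurf2-/- array.

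Beyond the 38, 85 of 94 further genes of the same pathways were measured. At late passage 61 of the 85 had a positive and 24 a negative genotype difference, with a median of 0.16, and 0 passed the adjusted threshold. At an unadjusted p under 0.05, 21 were higher, against 6.39% of all genes, and 2 lower, against 1220 of all 17501 genes. Both late Smurf2-/- arrays lay above the other 6 for 22 of the 85 and below them for 5, against 10.3% and 8.13% of all genes. Rad54b, a relative of Rad54l, was at 0.47 and 0.86 in late Smurf2-/- cells of mixed BL and C57B6 and -0.05 and 0.16 in early ones, against -0.30 and -0.08 in late and -0.11 and 0.05 in early wild-type cells. The late Smurf2-/- arrays stood above the rest, by 0.86 ± 0.10 against the late wild-type arrays (limma adjusted p = 0.113). Rad51ap1, a further recombination gene, differed by 0.66 ± 0.12 at late passage (limma adjusted p = 0.15), and Fance of the Fanconi core complex by 0.16 ± 0.07 over both passages (limma adjusted p = 0.651).

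Ercc4, the incision nuclease of nucleotide excision repair and partner of Ercc1, ran the other way and was at -0.67 and -0.61 in late Smurf2-/- cells of mixed BL and C57B6 and -0.0016 and 0.0016 in early ones, against 0.04 and -0.05 in late and 0.06 and 0.05 in early wild-type cells. Both late Smurf2-/- arrays were the lowest by a wide gap and the other 6 were within 0.06 of 0. Its late genotype difference was -0.64 ± 0.09 (limma adjusted p = 0.128). The 12 further nucleotide excision genes had a median late difference of -0.04, the lowest of the 8 groups of further genes. The 16 further recombination genes had 0.32 and the 10 of translesion synthesis and direct reversal 0.10.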

How the data were processed

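Mouse embryonic fibroblast RNA was measured on 8 Affymetrix arrays, 1 per combination of genotype, background and passage class. The deposited log2 values had been centred by the authors, since every transcript cluster had a median of 0 over the arrays (largest deviation 5e-07). For the summary and normalisation before that, no method is given in the sources used here. An exon array is named in the series text, whereas cluster identifiers were found in a gene-level array's annotation. Of 24169 clusters, 19134 had 1 gene symbol, and symbols were updated through gene identifiers for 19067. Cluster values were averaged to 17501 genes.

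Genes were tested with limma 3.58.1 in R 4.3.3 without a mean-variance trend. An additive model of the 3 factors gave the overall differences (4 residual degrees of freedom), and models with 1 interaction gave the values within a passage or genotype (3 residual degrees of freedom). Adjusted p-values are Benjamini-Hochberg values over all genes. The fit was tested on simulated data. Replicate numbers in the titles stand for passage class, so this pairing is already a term of the additive model. The number of arrays limits the precision. The alternatives were other normalisations, leaving out dim clusters, testing clusters singly, a trend, robust moderation, no replicate block and leaving out each array.

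The genes and lists were chosen with earlier results of these data known. Values on all arrays were given for up to 4 genes per functional group with the smallest p for genotype and up to 3 for each other comparison, and for the 3 further pathway genes with the smallest p for genotype and for genotype at late passage, where none passed. Promoter windows came from RefSeq on GRCm38.p6.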

Additional observations from a re-analysis of the deposited data

Results flagged for a closer look

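Of the 38 genes, 6 had opposite genotype differences in the compared settings on every array pair concerned, and no interaction passed the adjusted threshold. How many of all genes meet this sign rule was not counted. The 6 are therefore listed as flagged genes only, and not as a trait of this list. The genotype difference of Ddb2 was 0.13 in mixed BL and -0.71 in C57B6, and the difference between these was 0.85 ± 0.32 (SE, limma adjusted p = 0.939). That of Ercc1 was -0.20 in mixed BL and 0.27 in C57B6, a difference of -0.47 ± 0.30 (limma adjusted p = 0.939). That of Xrcc3 was -0.10 in mixed BL and 0.27 in C57B6, a difference of -0.36 ± 0.22 (limma adjusted p = 0.939). That of Trp53bp1 was 0.10 in mixed BL and -0.12 in C57B6, a difference of 0.22 ± 0.15 (limma adjusted p = 0.939). Between passages, the genotype difference of Rad54l was 0.83 at late and -0.07 at early passage, a difference of 0.91 ± 0.17 (limma adjusted p = 0.775). That of Pms2 was 0.35 at late and -0.15 at early passage, a difference of 0.51 ± 0.20 (limma adjusted p = 0.929). Each of these rests on 2 pairs of arrays against 2, and no group held enough arrays to look for a single outlying one.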

How the results depend on the processing

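In every alternative, 0 of the 38 genes passed the adjusted threshold in any comparison, and without the replicate block 4 of them had an unadjusted p under 0.05 for genotype, against 6 with it. The median difference over the 38 moved beyond the spread between pairs only when an array was left out, for background, where it ranged from -0.16 to 0.10. That spread is the SD of the medians of the array pairs, and it is a wide yardstick. Among others, it was 0.26 for genotype and 0.26 for passage, more than the medians themselves, 0.24 and 0.21. A median falling to 0 would not have counted as moved there. For genotype at late passage the spread was 0.22, against a median of 0.44. Setting array medians to 0 left 3 of the 38 at an unadjusted p under 0.05 for genotype, and quantile normalisation left 8, against 13, for the interaction with passage. For the interaction with background that number was 0, against 1, with array medians at 0, quantile normalisation or robust moderation. The count of 22 genes with both late Smurf2-/- arrays above the other 6 was 21 under quantile normalisation (7.31% of all genes), 21 with array medians at 0 (8.82%) and 22 without dim clusters (10.3%). These checks of that count, and those with 1 late array, were chosen after seeing the data.

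Leaving out 1 array at a time, the number of the 38 at an unadjusted p under 0.05 ranged from 1 to 10 for genotype, 14 to 23 for genotype at late and 0 to 2 at early passage, 5 to 19 for the interaction with passage, 8 to 22 for passage in Smurf2-/- and 0 to 3 in wild-type cells, 1 to 15 for passage, 0 to 6 for background and 0 to 8 for the interaction with background. The genes called among all 17501 ranged from 0 to 1 for genotype, 0 to 2 for passage, 1 to 21 for background and 0 to 0 for genotype at early passage.

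Over all genes, the 5 called for genotype were Smurf2 and the 4 sex-linked genes. The number called was 0 with array medians at 0, 2 without dim clusters, which leaves out Xist, and 3 by cluster. It was 3 with a trend, 0 after quantile normalisation and 1 with robust moderation. The 3 for passage were 0 with array medians at 0, 0 by cluster, 25 with a trend and 0 with robust moderation. The 14 for background were 7, 4, 66, 28, 1 and 5 under array medians at 0, no dim clusters, single clusters, a trend, quantile normalisation and robust moderation. The 1 for genotype at early passage, a sex-linked gene, was 0 with a trend or quantile normalisation. Single genes were followed only where the rule for named genes took them for a comparison, and among these the genotype difference changed sign for 4 when 1 array was left out. Over the arrays left out, Pms2 ranged from -0.028 to 0.18, reaching -0.028 and -0.025 without the late mixed BL Smurf2-/- or wild-type array. Xrcc5 ranged from -0.079 to 0.29, at -0.079 without the late C57B6 wild-type array and -0.013 without its Smurf2-/- counterpart. Ercc1 ranged from -0.13 to 0.18, at -0.13 without late C57B6 Smurf2-/- cells and -0.060 without early C57B6 wild-type cells. Lig4 ranged from -0.34 to 0.067, at 0.067 without late mixed BL wild-type cells. The cause was not tested.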

Other observations

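Of the 85 further repair genes, 0 passed the limma adjusted threshold for late against early passage, against 0.0171% of all genes. At an unadjusted p under 0.05 there were 24, against 17.3% of all genes. Of the 24, 15 were higher and 9 lower at late passage, against 1217 higher and 1805 lower among all 17501 genes. The 2 named here had the smallest p-values and were chosen after their values were seen. Mlh3, a mismatch repair gene, was at -0.38 and -0.41 in late Smurf2-/- cells of mixed BL and C57B6 and at -0.15 and -0.46 in late wild-type cells, against 0.42 and 0.24 in early Smurf2-/- and 0.15 and 0.29 in early wild-type cells. All 4 late arrays lay below all 4 early ones, with a late minus early difference of -0.63 ± 0.09 (SE, limma adjusted p = 0.104). Polk, a translesion polymerase gene, had a late minus early difference of -1.01 ± 0.24 (limma adjusted p = 0.156), and the early mixed BL arrays were its 2 highest. In Smurf2-/- cells of C57B6 it was at -0.06 at late and 0.06 at early passage.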
